A study of Canis lupus familiaris with 18 samples.

Results

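Collagens are the main structural proteins of the extracellular matrix, and their chains wind around each other into a triple helix. Fibrillar collagens form the cables of connective tissue, basement membrane collagens form the sheets under vessels and epithelia, and the remaining types coat fibrils, form beaded filaments or span the cell membrane. In normal brain most collagen lies in the meninges and in the walls of blood vessels, made by fibroblasts, mural cells and endothelial cells.

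The collagen genes described here were every gene of the deposited count table whose symbol has the form COL, a number, A and a number. They were 40 of the 29993 genes in the table, of which 16324 carried a symbol. By type, 11 were fibrillar, 6 belonged to basement membranes and 23 were other types. The chains COL4A1, COL6A2, COL18A1 and COL26A1 were not listed under their symbols, so types IV and VI are described without those partners.

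RNASeq was performed on formalin-fixed, paraffin-embedded tissue of high grade oligodendroglioma (HGO) of the canine forebrain, a glioma with features of the oligodendrocyte lineage. The 18 libraries were 11 from French bulldogs and 7 from a comparison group of other brachycephalic dogs, which held 4 boxers and 3 Boston terriers. All libraries are labelled as tumors, and no library of normal brain was analysed here. The tissue was taken by surgery before trial treatment. Besides breed, the arms differ in age, sex and tumor location as listed for the dogs, none of which entered a fit here, so their part in the differences was not tested.

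The total counted on genes was 8212452 to 13169880 per library, and the collagen genes held 0.105% to 0.333% of it. The lowest level that this depth could show was set at 3 counts, or 0.223 to 0.351 CPM (counts scaled to the library size), and covers counting error only. French bulldog 6 stood apart from the other libraries, and its markers go against the labelled tissue. It held 4, 0 and 2 counts of the oligodendrocyte lineage genes OLIG1, OLIG2 and SOX10, where every other library held at least 1137, and its macrophage and microglia markers summed to 5845 CPM against 42.4 to 266 CPM in the other French bulldogs. The name French bulldog 6 stands for the library with that label, and whether it holds the labelled tumor cannot be told here. French bulldogs 2 and 8 carry the same case number in their library names and are listed with the same age, sex and tumor location, and 11 libraries may therefore be fewer than 11 dogs. Their counts differed by a chi-square of 9.41 per degree of freedom against at least 33.1 for every other pair of French bulldogs, which is still more than sampling noise, and they were kept as separate libraries. The sample numbers in the library names were 1 to 12 for the French bulldogs, 18 to 21 for comparison dogs 1 to 4, and again 1 to 3 for comparison dogs 5 to 7. The comparison dogs thus fall into 2 library series, of which the second was numbered apart from the French bulldogs, and the labels do not show whether the first was prepared together with them. The study describes each library as a separate dog, which the labels do not show, and p-values measure the spread between these libraries.

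**Figure D1:**
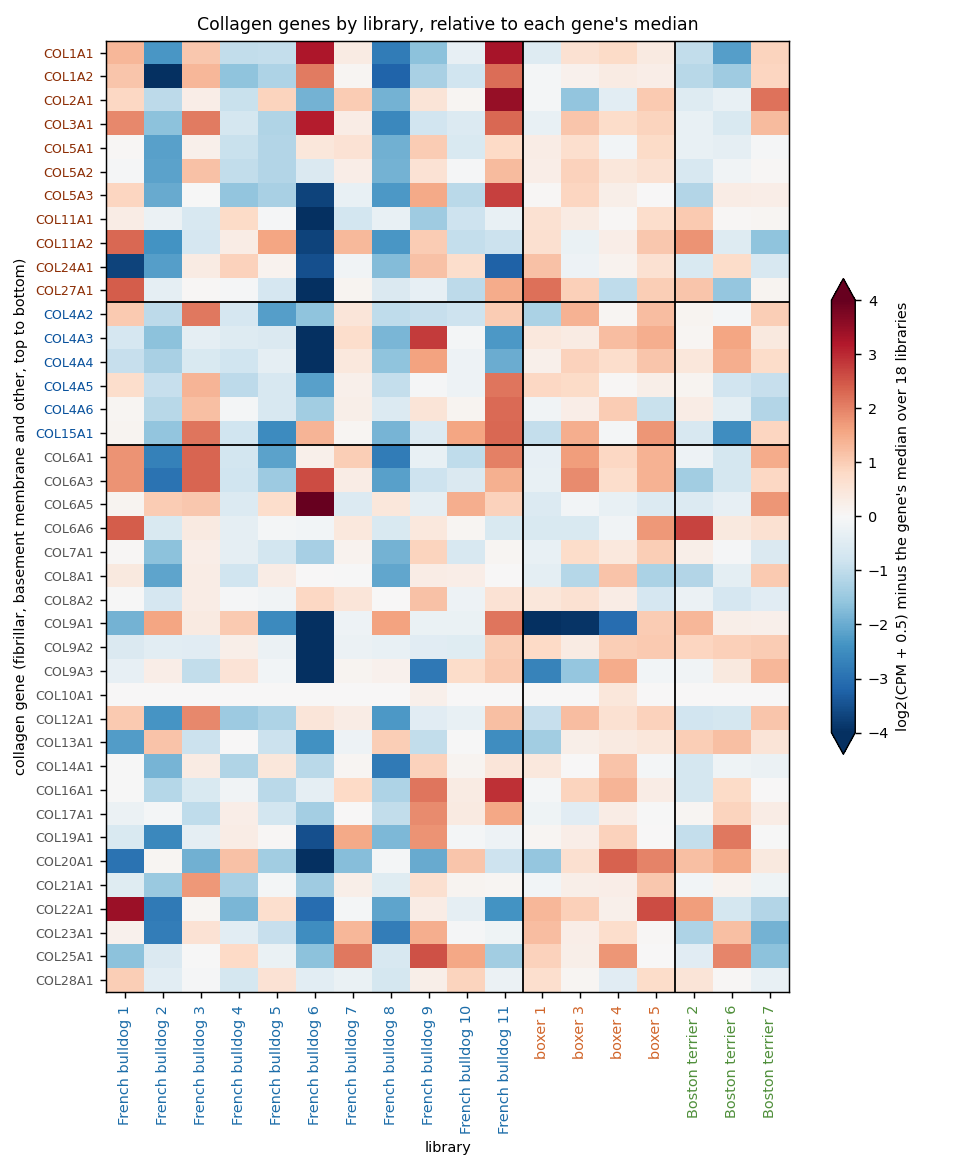
Level of each of the 40 collagen genes (rows, by type) in each of the 18 libraries (columns, by breed), as log2(CPM + 0.5) minus the median of that gene over the libraries, with colours capped at 4 on the log2 scale. The column of French bulldog 6 is dark red in COL1A1, COL3A1 and COL6A5 and dark blue in COL4A3, COL9A2 and COL11A1, and French bulldogs 2 and 8 are blue in most fibrillar rows.

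Of the 40 genes, 35 passed the filter on low counts and were tested. The 5 that did not were COL6A5, COL6A6, COL8A2, COL10A1 and COL28A1. The tested collagens varied more between libraries of the same arm than most genes did. Their median dispersion, the squared coefficient of variation beyond counting noise, was 0.848 against 0.207 over all 16495 genes tested. All 35 lay above the median of all genes, the lowest being COL7A1 at percentile 57.0, and 14 lay in the top 10%. Because bulk tissue was sequenced, fewer cells of a type and less RNA per cell cannot be told apart in any of the values given here.

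The extremes of that spread fell on few libraries. Counting ties at 0 counts for each library that held them, French bulldog 6 held the lowest level of 16 of the 35 tested genes, and French bulldogs 2 and 8 of 8 each. French bulldog 11 held the highest level of 10 and French bulldog 9 of 7. Boxers and Boston terriers held the lowest level of 1, COL25A1, which was at 0 counts in Boston terrier 7 and in French bulldogs 1 and 6, and the highest level of 9. CPM are not scaled by gene length, so levels are compared between libraries only, not between genes.

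The type I and type III chains, COL1A1, COL1A2 and COL3A1, which make up the common fibrils of scar, vessel wall and meninges, ranged widely, with 76.5, 90.6 and 58.1 times between their lowest and highest library. COL1A1 was at 3.86 CPM in French bulldog 8 and 5.57 CPM in French bulldog 2, at a median of 23.4 CPM, and at 287 and 295 CPM in French bulldogs 6 and 11. Among comparison dogs COL1A1 was at 6.09 CPM at the lowest, 38.6 CPM at the median and 55.3 CPM at the highest. The French bulldogs thus lay on both sides of the comparison dogs, with 2 below all of them and 4 above all of them. The log2 fold change of COL1A1 in French bulldogs against the comparison group was 1.19 ± 0.82 (SE; quasi-likelihood test of edgeR, Benjamini-Hochberg adjusted p = 0.602). Without French bulldog 6 it was 0.75 ± 0.76, and by limma-voom on all libraries 0.18.

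COL1A2, the partner chain of COL1A1, ran from 2.34 CPM in French bulldog 2 over a median of 25.2 CPM to 212 CPM in French bulldog 11, and from 16.3 over 50.4 to 80.2 CPM in the comparison group. COL3A1, the chain of type III collagen, ran from 4.67 CPM in French bulldog 8 over 20.7 to 271 CPM in French bulldog 6, and from 19.5 over 51.0 to 73.8 CPM in the comparison group. In both genes 4 French bulldogs lay above every comparison dog, while the French bulldog median lay below the comparison median. Their log2 fold changes were 0.56 ± 0.71 and 0.67 ± 0.70 (SE), with adjusted p-values of 0.806 and 0.756 by edgeR. Without French bulldog 6 they were 0.31 ± 0.70 and 0.23 ± 0.63, whereas limma-voom gave -0.35 and -0.19. A fit of French bulldogs 1 to 7 and comparison dogs 1 to 7 gave 0.60 and 0.92 without a replicate block and -0.29 and -0.0059 with it.

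The type V chains, which control the width of type I fibrils, spread less. COL5A1 was between 6.46 and 63.4 CPM in French bulldogs against between 24.0 and 52.4 CPM in the comparison group, with a log2 fold change of -0.21 ± 0.39 (SE). COL5A2 was between 11.4 and 125 CPM and between 33.0 and 97.9 CPM in the same order, with -0.24 ± 0.42. French bulldogs 2 and 8 were the lowest libraries in both genes. COL5A3 behaved apart from them, with 461 CPM in French bulldog 11, 4.87 CPM in French bulldog 6 and 30.3 to 126 CPM in the comparison group. The fitted log2 difference for COL5A3 was 0.25 ± 0.69 (SE).

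COL11A1 and COL11A2, chains of the type XI collagen of cartilage, did not share the high values of French bulldog 6. COL11A1 was at 17.2 CPM in French bulldog 6, at 206 to 956 CPM in the other 10 French bulldogs, with a median of 453 CPM over all 11, and at 569, 694 and 1150 CPM as the lowest, median and highest comparison dog. Of the French bulldogs, 9 were below every comparison dog. Its log2 fold change was -0.80 ± 0.42 (SE; edgeR, adjusted p = 0.501) with French bulldog 6 and -0.65 ± 0.25 (adjusted p = 0.412) without it. COL11A2 ran from 8.59 to 574 CPM in French bulldogs against from 38.0 to 405 CPM in the comparison group, with a log2 fold change of -0.02 ± 0.68, which was positive under 14 of 27 alternatives.

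The 3 remaining fibrillar genes belong mainly to cartilage and developing bone. COL2A1, the chain of cartilage collagen, was at 37.5 CPM in French bulldog 11 and at 3.51 CPM at the French bulldog median, with 0.638 to 14.7 CPM in the comparison group. COL27A1 was at 322 CPM in French bulldog 1 and 274 CPM in boxer 1, with medians of 47.3 CPM in French bulldogs and 117 CPM in the comparison group. COL24A1 was at 0.593 to 31.3 CPM in French bulldogs against 8.60 to 31.0 CPM in the comparison group, and its 5 lowest libraries were French bulldogs. The log2 fold changes of COL2A1, COL27A1 and COL24A1 were 0.52 ± 0.80, -0.43 ± 0.65 and -0.50 ± 0.66 (SE). Each moved with single libraries. For COL2A1 the log2 fold change was -0.47 without French bulldog 11, that of COL27A1 was -0.96 without French bulldog 1 and -0.00038 without boxer 1, and that of COL24A1 was -0.29 without boxer 1. Among the 11 fibrillar genes none had an unadjusted p under 0.05, against 10.6% of all genes tested. Of their log2 fold changes 5 were positive and 6 negative, and the median was -0.02 against 0.04 over all genes tested.

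**Figure D2:**
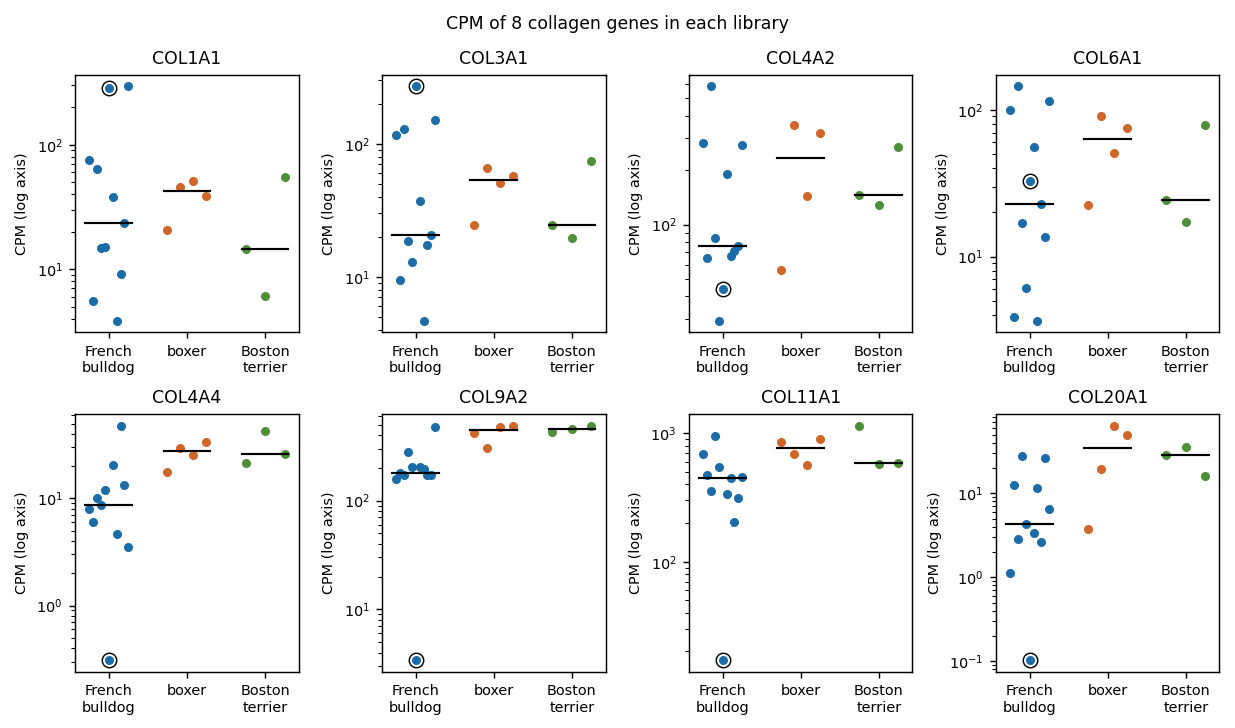
CPM (log axis) of 8 collagen genes in each library, by breed, with the median of each breed as a line and French bulldog 6 circled. French bulldog 6 is among the highest in COL1A1 and COL3A1 and the lowest in COL4A4, COL9A2, COL11A1 and COL20A1, and 10 of the 11 French bulldogs lie below every comparison dog in COL9A2.

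Among the basement membrane genes, COL4A2 encodes a chain of the type IV collagen found under nearly all endothelium. It was at 29.3 CPM in French bulldog 5, 75.7 CPM at the French bulldog median and 584 CPM in French bulldog 3, and at 55.6, 145 and 356 CPM as the lowest, median and highest comparison dog. The log2 fold change was -0.33 ± 0.54 (SE; edgeR, adjusted p = 0.864). COL4A1 and COL4A2 are neighbours with overlapping spans in the RefSeq annotation of another dog assembly, and since the strand setting of the counting is not stated, reads where they overlap could not be assigned here to either.

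COL4A3 and COL4A4, which with COL4A5 form the type IV collagen of the kidney filter and a few other basement membranes, had low values in most French bulldogs. COL4A4 was at 0.311 CPM (3 counts) in French bulldog 6, 8.65 CPM at the French bulldog median and 48.0 CPM in French bulldog 9, whereas the comparison dogs lay between 17.8 and 43.0 CPM with a median of 25.9 CPM. French bulldogs 7 and 9, at 20.7 and 48.0 CPM, were the only French bulldogs above the lowest comparison dog. The log2 fold change of COL4A4 was -1.19 ± 0.53 (SE; edgeR, unadjusted p = 0.0387, adjusted p = 0.452). It was -1.02 ± 0.42 without French bulldog 6 and -1.69 without French bulldog 9, with adjusted p-values of 0.419 and 0.199. With French bulldogs 2 and 8 summed as 1 library it was -1.11 ± 0.55 and the unadjusted p was 0.0580, so COL4A4 no longer passed 0.05. It also did not pass with French bulldog 1, 2, 3, 4, 5, 8 or 11 left out. The same held with boxer 3, 4 or 5 or Boston terrier 6 left out.

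COL4A3 showed the same arrangement, with 1 count in French bulldog 6, a French bulldog median of 12.2 CPM, 131 CPM in French bulldog 9 and 19.5 to 56.1 CPM in the comparison group. Of the French bulldogs, 9 were below every comparison dog, and 1 was above all of them. French bulldog 9 alone held 26.9% of the CPM of COL4A3 summed over the 18 libraries. The log2 fold change was -0.65 ± 0.72 (SE; edgeR, adjusted p = 0.777) with French bulldog 9 and -1.63 without it (adjusted p = 0.271).

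The chains COL4A5 and COL4A6, which pair in the basement membranes of smooth muscle, were highest in French bulldog 11. COL4A5 was at 0.414 to 17.4 CPM in French bulldogs against 1.65 to 6.69 CPM in the comparison group, and COL4A6 at 0 to 5.83 CPM and 0.0827 to 2.19 CPM. COL15A1, a collagen that links basement membranes to the fibrils around them, was at 3.39 to 108 CPM in French bulldogs against 3.50 to 74.9 CPM in the comparison group. The log2 fold changes of COL4A5, COL4A6 and COL15A1 were 0.20 ± 0.56, 0.61 ± 0.74 and 0.25 ± 0.69 (SE). That of COL4A6 ran from 0.41 to 1.09 with a library left out and from 0.022 to 2.25 under the other alternatives. In the 6 basement membrane genes, COL4A4 alone had an unadjusted p under 0.05, which is 16.7% against 10.6% of all genes. A share of 6 genes moves far with 1 gene. The median log2 fold change was -0.07.

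Type VI collagen forms beaded filaments near cell surfaces and is represented by COL6A1, COL6A3, COL6A5 and COL6A6. COL6A1 was at 3.66 to 145 CPM in French bulldogs, with a median of 22.8 CPM, and at 17.1 to 91.2 CPM, with a median of 50.6 CPM, in the comparison group. COL6A3 was at 1.67 to 102 CPM and at 5.91 to 62.4 CPM in the same order. The log2 fold changes were -0.13 ± 0.67 and 0.21 ± 0.72 (SE), and that of COL6A3 became -0.12 without French bulldog 6, its highest library. French bulldogs 2 and 8 held the 2 lowest levels of both genes.

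The counts of COL6A5, an alternative chain of type VI collagen, were held almost entirely by 1 library. French bulldog 6 held 1122 counts (116 CPM), which was 93.2% of the CPM summed over the 18 libraries, and every other library held at most 24 counts. The comparison dogs lay between 0 and 1.98 CPM and the median of the French bulldogs was 0.701 CPM. The neighbouring gene COL6A6 was at 2 counts in French bulldog 6 and reached 4.51 CPM in Boston terrier 2. COL10A1, the collagen of hypertrophic cartilage, was the other gene of which 1 library held over 50% of the summed CPM, with 2 counts in boxer 4, 1 count in French bulldog 9 and none elsewhere, which is under the lowest level the depth could show.

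The type IX chains coat the fibrils of cartilage, and COL9A2 spread least among the collagens once French bulldog 6 was set aside, with 3.09 times between its lowest and highest library. COL9A2 was at 3.42 CPM in French bulldog 6 and at 159, 172, 173, 174, 178, 195, 203, 204, 280 and 471 CPM in the other French bulldogs. The comparison dogs were at 302 CPM in boxer 3, 418 CPM in boxer 1, 431 CPM in Boston terrier 2, 460 CPM in Boston terrier 6, 472 CPM in boxer 4, 482 CPM in Boston terrier 7 and 491 CPM in boxer 5. French bulldog 11 was the only French bulldog within the range of the comparison dogs, and the other 10 lay below it. The log2 fold change was -1.12 ± 0.44 (SE; edgeR, unadjusted p = 0.0207, adjusted p = 0.433). Without French bulldog 6 it was -0.96 ± 0.21 (unadjusted p = 0.000208, adjusted p = 0.249), so its standard error was smaller while the value after adjustment over all genes stayed above 0.05.

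The partners of COL9A2 did not show that separation. COL9A1 was at 0.311 to 384 CPM in French bulldogs against 4.40 to 222 CPM in the comparison group, where boxers 1, 3 and 4 were at 4.40, 5.29 and 10.2 CPM and the other 4 dogs at 101 to 222 CPM. COL9A3 was at 0 to 191 CPM in French bulldogs against 14.2 to 259 CPM in the comparison group. French bulldog 6 was the lowest library in all 3 genes, with 3, 33 and 0 counts of COL9A1, COL9A2 and COL9A3. The log2 fold changes of COL9A1 and COL9A3 were 0.58 ± 0.90 and -0.36 ± 0.72 (SE).

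COL20A1, a little studied fibril-associated collagen, had the smallest p of the family by edgeR over all 18 libraries. It was at 0.104 CPM (1 count) in French bulldog 6, 4.32 CPM at the French bulldog median and 27.5 CPM in French bulldog 4, and at 3.80 CPM in boxer 1, 28.5 CPM at the comparison median and 64.0 CPM in boxer 4. All 11 French bulldogs were below the comparison median, and 4 comparison dogs were above every French bulldog. The log2 fold change was -1.78 ± 0.69 (SE; edgeR, unadjusted p = 0.0186, adjusted p = 0.433), and -1.64 ± 0.60 without French bulldog 6 (unadjusted p = 0.0130, adjusted p = 0.390). That unadjusted p was larger than the one of COL9A2 in the same fit. With boxer 4 left out, COL20A1 had no unadjusted p under 0.05. COL7A1, the anchoring fibril collagen of skin, was the gene of the fifth smallest p, with 11.7 to 82.7 CPM in French bulldogs, 29.9 to 88.3 CPM in the comparison group and -0.56 ± 0.34 (SE, adjusted p = 0.560) as its log2 fold change.

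The other 11 genes tested are fibril-associated (COL12A1, COL14A1, COL16A1, COL19A1, COL21A1 and COL22A1), transmembrane (COL13A1, COL17A1, COL23A1 and COL25A1) and short-chain network collagens (COL8A1). Their log2 fold changes lay between -0.79 ± 0.51 in COL13A1 and 0.35 ± 0.59 in COL16A1 (SE), and the smallest unadjusted p by edgeR was 0.143, in COL13A1. French bulldog 9 was the highest library in COL17A1, COL23A1 and COL25A1, and French bulldog 1 held 33.2% of the summed CPM of COL22A1, with 89.3 CPM against a French bulldog median of 5.99 CPM. COL13A1, whose product sits in the cell membrane, was at 23.7 and 21.6 CPM in French bulldogs 2 and 8 and at 1.48, 1.55 and 1.85 CPM in French bulldogs 11, 6 and 1, with 3.70 to 25.1 CPM in the comparison group. Of the genes that were not tested, COL8A2 reached 1.31 CPM and COL28A1 1.11 CPM at most. The libraries singled out here were chosen after their values were seen.

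**Figure D3:**
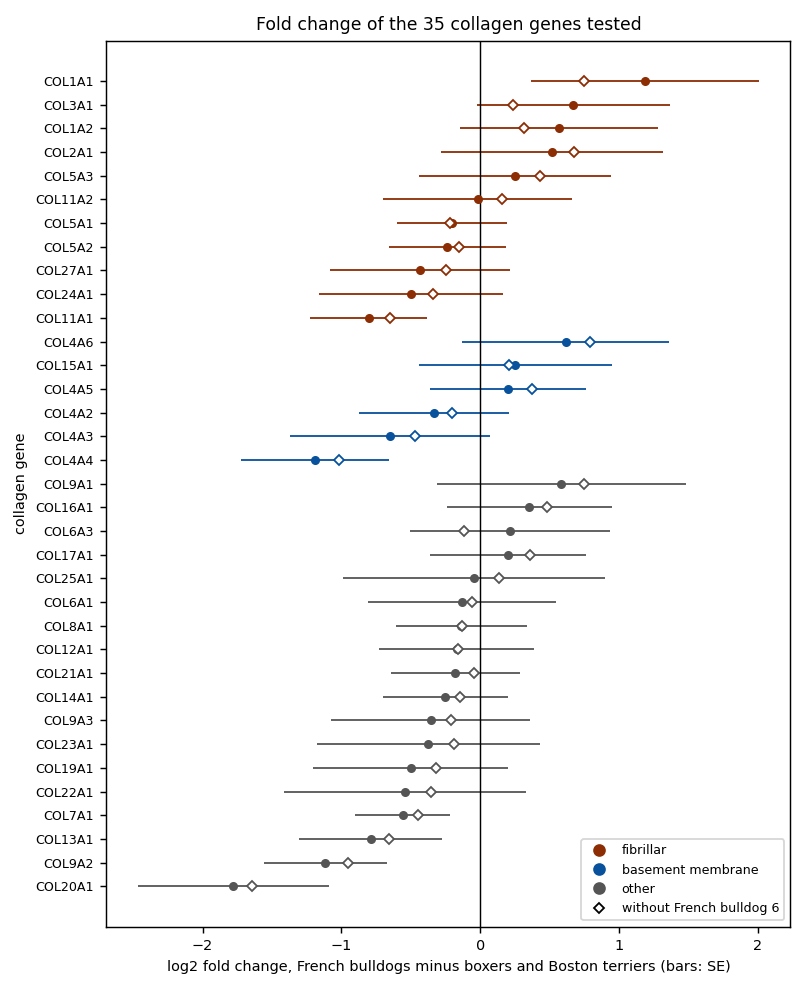
Log2 fold change of French bulldogs against the comparison group for the 35 collagen genes tested, by type, with bars of 1 SE and the value without French bulldog 6 as a diamond. COL20A1, COL4A4 and COL9A2 lie furthest below 0 at -1.78, -1.19 and -1.12, and COL1A1 lies furthest above 0 at 1.19 with an SE of 0.82.

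Over the family, no collagen had an adjusted p under 0.05 by edgeR in French bulldogs against the comparison group, and 1 of the 16495 genes tested did (0.00606%). The smallest adjusted p of a collagen was 0.433. An unadjusted p under 0.05 was found in 3 of 35 collagens (8.57%), COL20A1, COL9A2 and COL4A4, against 10.6% of all genes, so the share was near the background. All 3 were at lower levels in French bulldogs, where 3.55% of all genes had such a p, and none was at higher levels, where 7.02% had. Of the log2 fold changes, 23 were negative and 12 positive, with a median of -0.18 against 0.04 over all genes. With French bulldogs 2 and 8 summed, 2 collagens had an unadjusted p under 0.05, COL20A1 and COL9A2 (0.0222 and 0.0294), against 9.56% of all genes. DESeq2's Wald test gave 4 of 40 collagens with an unadjusted p under 0.05 against 9.62% of genes, COL6A5 and the same 3, and none with an adjusted p under 0.05. For a gene of this spread the standard error of the log2 fold change was 0.34 to 0.94, so these p-values do not show that the arms are alike.

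The levels were also compared by their overlap alone. In none of the 35 collagens did the arms lie apart without overlap, and they did so in 0.0606% of all genes. At least 9 of the 11 French bulldogs lay below every comparison dog in COL9A2, COL4A3, COL4A4 and COL11A1, which is 11.4% of the collagens tested against 0.661% of all genes. The limit of 9 was chosen after these values were seen, and French bulldog 6, in which the counts of all 4 genes were at their lowest, is 1 of the 9 or 10 each time. French bulldogs 2 and 8, which share a case number, are also both among them each time. Leaving out French bulldog 6 gave an unadjusted p under 0.05 in 4 collagens (COL9A2, COL20A1, COL11A1 and COL4A4) against 10.8% of genes, and leaving out French bulldog 9 gave it in 5 (COL4A4, COL4A3, COL20A1, COL9A2 and COL7A1) against 12.8%. Only COL9A2 had an unadjusted p under 0.05 whichever library was left out. Against the comparison dogs of the first library series alone its log2 fold change was -1.01, and against those of the second series alone -1.24. In neither did it have an unadjusted p under 0.05. The first gave 1 of 36 collagens, COL6A5, against 4.94% of genes, and the second 1 of 36, COL20A1, against 4.34%.

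Boxers and Boston terriers were then taken as separate breeds, in a fit with 37 collagens and 17934 genes. French bulldogs against boxers gave no collagen with an adjusted p under 0.05, and no gene (0%), and 2 collagens with an unadjusted p under 0.05 (5.41%) against 8.26% of genes. They were COL20A1, at -1.91 ± 0.81, and COL6A5, at 7.04 ± 2.78 on the log2 scale (SE; edgeR), which rests on French bulldog 6. DESeq2 gave COL20A1 alone of 39 collagens, against 8.42% of genes. French bulldogs against Boston terriers gave 0 collagens at either threshold, against 0.00558% of genes by the adjusted p and 3.84% by the unadjusted p, while DESeq2 gave 2 of 39 at an unadjusted p under 0.05, the scarce COL6A6 and COL8A2, against 4.59% of genes. Both comparisons share the French bulldogs. The log2 fold changes of COL9A2 were -1.06 ± 0.53 against boxers and -1.19 ± 0.58 against Boston terriers, and those of COL4A4 were -1.11 ± 0.64 and -1.29 ± 0.70.

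In boxers against Boston terriers, 0 of 37 collagens had an unadjusted p under 0.05 by edgeR against 2.12% of genes, and 0 had an adjusted p under 0.05 against 0% of genes. DESeq2 gave 0 of 39 at either threshold, against 2.92% of genes by the unadjusted p. COL5A2 was at 62.1, 70.6, 79.6 and 97.9 CPM in boxers and 33.0, 47.4 and 53.6 CPM in Boston terriers, with a log2 fold change of 0.79 ± 0.67 (SE; edgeR, adjusted p = 1). It was 1 of 3 collagens whose levels did not overlap between these breeds, with COL13A1 and COL14A1, which is 8.11% of those tested against 7.24% of genes. COL9A2 was close to level between these breeds, at 421 ± 84.7 CPM (SD, n = 4) in boxers and 457 ± 25.5 CPM (SD, n = 3) in Boston terriers, with a log2 difference of -0.12 ± 0.73 (SE). COL9A1 was at 49.4 ± 85.6 CPM (SD, n = 4) and 142 ± 68.8 CPM (SD, n = 3). With the library series as a term, 3 of 35 collagens, COL5A2, COL5A1 and COL6A3, had an unadjusted p under 0.05 in this comparison against 3.54% of genes, and none an adjusted p under 0.05. COL5A2 and COL9A1 were chosen for this comparison after their values were seen.

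Collagen chains that share a trimer or a fibril were then followed across the 18 libraries by the correlation of log2 CPM, in 14 pairs with a permutation test (two-sided, 100000 resamples) and Benjamini-Hochberg adjustment over the pairs. Chains of type I moved together. COL1A1 and COL1A2 had Pearson's r = 0.937 and Spearman's rho = 0.975 (permutation p = 1e-05 each, the smallest these resamples can give, adjusted p = 2.33e-05 and 3.5e-05). The ratio of their counts nevertheless ranged from 0.374 in Boston terrier 6 to 2.38 in French bulldog 2. Without French bulldogs 6 and 11, the libraries farthest from the median of COL1A1, r was 0.928, and it was 0.956 within French bulldogs and 0.948 within the comparison group. COL1A1 and COL3A1 had r = 0.946 and rho = 0.942, and r = 0.933 without the same libraries.

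COL4A3 and COL4A4 had r = 0.979 and rho = 0.946 (permutation p = 1e-05 each, adjusted p = 2.33e-05 and 3.5e-05). Without French bulldogs 6 and 9 r was 0.957, within French bulldogs 0.994 and within the comparison group 0.719 (exact permutation p = 0.0746, n = 7). These chains are neighbours in the RefSeq annotation, as are COL4A5 and COL4A6, which had r = 0.817 and rho = 0.664 (permutation p = 7e-05 and 0.0033, adjusted p = 0.000123 and 0.0066). Within the comparison group COL4A5 and COL4A6 had r = 0.502 (exact permutation p = 0.251, n = 7). COL5A1 with COL5A2 had r = 0.891 and rho = 0.835, and COL6A1 with COL6A3 had r = 0.889 and rho = 0.853, with adjusted p-values of 2.33e-05 for each r by the permutation test. For COL5A1 with COL5A2, r was 0.763 without French bulldogs 2 and 8 and 0.852 with these summed as 1 library. French bulldog 6 was off the line of the other libraries in COL6A1 with COL6A3, and r was 0.955 without it.

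The correlations of the type IX chains were not kept without French bulldog 6. COL9A2 with COL9A3 had r = 0.847 and rho = 0.488 (permutation p = 0.00861 and 0.0426, adjusted p = 0.0121 and 0.0497), and r was 0.265 without French bulldog 6 (adjusted p = 0.363) and 0.275 without French bulldog 6 and boxer 5. COL9A1 with COL9A2 had r = 0.588 and rho = 0.234 (permutation p = 0.0295 and 0.349, adjusted p = 0.0344 and 0.376), and r was -0.02 without French bulldog 6. Within each library series of the comparison group there were too few libraries, 4 and 3, for a correlation.

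**Figure D4:**
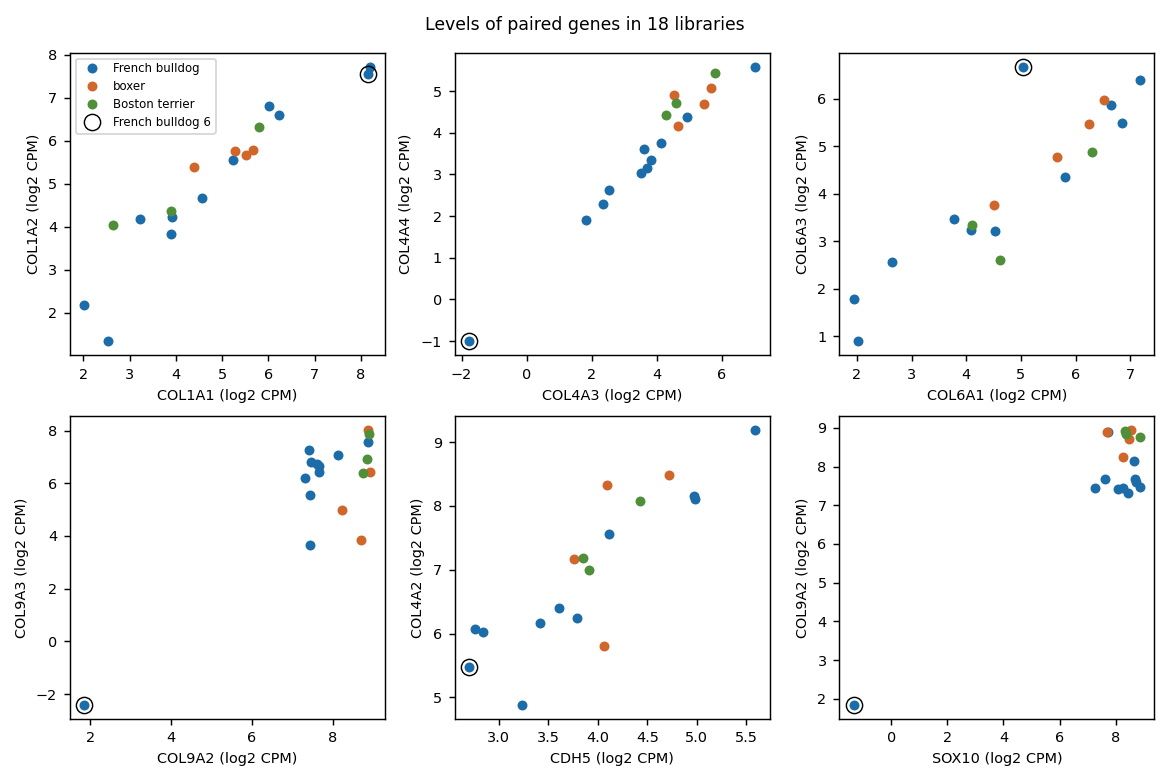
Log2 CPM of 6 pairs of genes in the 18 libraries, coloured by breed, with French bulldog 6 circled. COL1A1 with COL1A2 and COL4A3 with COL4A4 lie along a line (r = 0.937 and 0.979), whereas COL9A2 with COL9A3 and SOX10 with COL9A2 are a cloud and 1 distant library, with r = 0.265 and 0.04 once French bulldog 6 is left out.

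Markers of other cells were set beside the collagens. The endothelial gene CDH5, which encodes VE-cadherin, and COL4A2 had r = 0.860 and rho = 0.860 (permutation p = 1e-05 each, adjusted p = 2.33e-05 and 3.5e-05), r = 0.796 without French bulldogs 3 and 6, 0.926 within French bulldogs and 0.594 within the comparison group (exact permutation p = 0.162, n = 7). COL1A1 with COL4A2 had r = 0.423 and rho = 0.505 (permutation p = 0.0799 and 0.0348, adjusted p = 0.0799 and 0.0443), and r was 0.692 without French bulldog 6. The mural cell gene PDGFRB with COL1A1 had r = 0.464 and rho = 0.581 (permutation p = 0.0535 and 0.0127, adjusted p = 0.0576 and 0.0178), with r = 0.692 without French bulldog 6, 0.182 without French bulldogs 2 and 8 and 0.503 without all 3, so its size depended on these libraries. COL3A1 with its neighbour COL5A2 had r = 0.662 and rho = 0.618 (permutation p = 0.00282 and 0.00737, adjusted p = 0.00439 and 0.0115), and r = 0.758 without French bulldogs 6 and 8.

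SOX10, a factor of the oligodendrocyte lineage, was set beside COL11A1 and COL9A2, which are 2 of the 16 tested collagens that were lowest in French bulldog 6. They were picked for that low value, so r over all 18 libraries follows from the choice and is a description without a test. The permutation p-values of both pairs still entered the adjustment, so the adjusted p-values of the other pairs include them. With COL11A1 SOX10 had r = 0.927 and rho = 0.641, with r = 0.676 without French bulldog 6 and 0.525 without French bulldogs 6 and 9. With COL9A2 it had r = 0.904 and rho = 0.205, and r = 0.04 without French bulldog 6. The pairs with COL4A2, both pairs with SOX10 and COL3A1 with COL5A2 were added after the data were seen.

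The cell type markers were lists of 8 genes each, of which 6 to 8 were listed in the counts. Endothelial markers summed to 167 to 968 CPM in French bulldogs against 344 to 527 CPM in the comparison group, and all 7 tested had negative log2 fold changes, 4 of them also without French bulldog 6, and none with an unadjusted p under 0.05 in either fit. Mural markers summed to 68.4 to 412 and 154 to 385 CPM. All 6 tested had negative log2 fold changes, and 1 was positive without French bulldog 6. None had an unadjusted p under 0.05 in either fit. The sum was lowest in French bulldog 6, which held 5 counts of CSPG4 against at least 175 in every other library. Its DES, at 8.80 CPM, was the highest of any library, and its PDGFRB, at 5.16 log2 CPM, was not the lowest. Fibroblast and meningeal markers summed to 37.7 to 339 and 43.0 to 186 CPM. Of the 7 tested, 6 had positive log2 fold changes, and all 7 without French bulldog 6. None had an unadjusted p under 0.05 in either fit. The 3 highest libraries were French bulldogs 6, 11 and 9 at 339, 240 and 229 CPM. THY1 alone held 174 CPM of the sum in French bulldog 9, and PDPN alone held 149 CPM of that in French bulldog 11. COL1A1 and COL3A1 were at 287 and 271 CPM in French bulldog 6 and at 295 and 152 CPM in French bulldog 11, but at 9.22 and 17.5 CPM in French bulldog 9. French bulldogs 2 and 8, in which COL1A1, COL1A2, COL3A1, COL6A1 and COL6A3 were lowest, had 59.6 and 71.8 CPM of fibroblast and meningeal markers. They had the 2 lowest sums of endothelial markers, at 167 and 171 CPM. Their mural markers, at 184 and 192 CPM, were at ranks 6 and 8 of the 18 libraries from the lowest. In French bulldog 8, CSPG4 alone held 135 CPM of that mural sum. The mural marker PDGFRB was lowest in these 2 libraries, at 4.55 and 4.41 log2 CPM. French bulldog 3, in which COL4A2 was highest at 584 CPM, had the highest sums of endothelial and mural markers, at 968 and 412 CPM. Oligodendrocyte lineage markers summed to 2549 to 8837 CPM in the other 10 French bulldogs, 2174 to 4093 CPM in the comparison group and 173 CPM in French bulldog 6, and astrocyte and neuron markers summed to 23.5 and 13.5 CPM in that library. In the comparison of the arms, 5 of the 7 macrophage and microglia markers had an unadjusted p under 0.05 with positive log2 fold changes, against 7.02% of all genes, and none had an adjusted p under 0.05. Without French bulldog 6 none of the 7 had one, against 6.92% of genes, and their median log2 fold change was 0.38 in place of 2.12. CD163 was at 2880 CPM in that library, with medians of 19.2 CPM in French bulldogs and 8.75 CPM in the comparison group. The French bulldog median lay above the comparison median in every one of the 7 but CD68, at 3.99 against 4.66 CPM. The part of these cell types in the collagen values was not tested.

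Genes that make, cut, bind or accompany collagen were described from lists, and none of them had an adjusted p under 0.05 by edgeR. Of 21 tested genes of collagen folding and cross-linking, 1 had an unadjusted p under 0.05 in each direction. P4HB, a subunit of the enzyme that hydroxylates proline in collagen, had a log2 fold change of 0.98 ± 0.35 (SE, adjusted p = 0.433) and of 0.60 ± 0.19 without French bulldog 6 (unadjusted p = 0.00541, adjusted p = 0.365), with 68.5 to 499 CPM in French bulldogs, highest in French bulldog 6, and 58.6 to 97.6 CPM in the comparison group. LOXL4, a lysyl oxidase that cross-links collagen, was at 0.297 to 4.74 CPM in French bulldogs against 2.95 to 162 CPM in the comparison group. Its comparison median was 11.3 CPM, so the highest comparison dog lay far above the median. The log2 fold change was -4.10 ± 0.79 (edgeR, unadjusted p = 5.71e-05, adjusted p = 0.235). The study, which used the Wald test of DESeq2, lists LOXL4 among its genes with lower expression in French bulldogs.

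Of 10 genes of procollagen processing, ADAMTS3, which removes the propeptide of type II procollagen, alone had an unadjusted p under 0.05, at 1.00 to 22.1 CPM and 10.4 to 29.2 CPM and a log2 fold change of -1.14 ± 0.52. Of 8 collagen receptors tested, ITGA10 and ITGA11, integrin chains that bind collagen, had one, at -0.56 ± 0.23 and -1.32 ± 0.40 (SE, adjusted p = 0.434 and 0.433). ITGA11 was at 0.914 to 5.85 CPM in French bulldogs against 3.80 to 13.1 CPM in the comparison group, and 8 French bulldogs were below every comparison dog. Of 7 collagen-degrading enzymes and their inhibitors none had one. Of 21 matrix partners, FMOD, a proteoglycan that binds fibrils, had one, at 0.102 to 2.75 CPM and 0.657 to 3.42 CPM with -1.29 ± 0.51. Over the 5 lists, 6 genes of 67 had an unadjusted p under 0.05, which is 8.96% against 10.6% of all genes and so near the background. Of these, 1 had a positive and 5 had negative log2 fold changes. Among all genes, 7.02% had such a p with a positive and 3.55% with a negative log2 fold change.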

How the data were processed

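The authors extracted RNA from paraffin scrolls, prepared libraries with a stranded, ribosomal RNA depleting kit, trimmed reads with Trimmomatic 0.33, mapped them with HISAT2 2.1.0 and counted them with featureCounts. They deposited raw counts per gene that were not normalized. How strand and multi-mapped reads were treated is not given in the sources used here. The label text and the methods name different sequencing instruments. Groups came from the breed labels.

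Counts were tested with edgeR 4.0.16 in R 4.3.3 (TMM, filterByExpr, robust quasi-likelihood F test, two-sided, Benjamini-Hochberg over all genes, threshold 0.05), with no covariate, in a fit of the 2 arms and a fit of the 3 breeds. Standard errors were derived from the log2 fold change and the root of F. CPM are TMM-normalized, and log2 CPM used a prior count of 2. Alternatives were DESeq2 1.42.0, limma-voom (limma 3.58.1), other normalization and filters, libraries left out, French bulldogs 2 and 8 summed, library series and a replicate block. The code was tested on simulated data. Correlations and figures used Python 3.11.15, scipy 1.17.1 and matplotlib 3.10.9.

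The collagen genes, classes, lists, markers and most pairs were chosen with earlier results of these data known. Named were every tested fibrillar, basement membrane and type VI gene, the 5 genes of smallest p, genes with over 50% of their summed CPM in 1 library, and list genes with an unadjusted p under 0.05. Others named, such as COL9A1 and COL9A3, were chosen after their values were seen. The 4 pairs with COL4A1 or COL6A2 were left out. Gene order came from RefSeq (UU_Cfam_GSD_1.0), in which 39 of the 40 symbols were found, and which is not the assembly the authors used.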

Additional observations from a re-analysis of the deposited data

Results flagged for a closer look

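Among the 4 boxers and the 7 comparison dogs, the highest or lowest library was set against the range of its group in 24 collagen genes, in 48 tests. Chance flags about 1 in 20 groups where values are normally distributed, and 6 stood out. CPM were used without a log, and their distribution was not checked. The boxers are also among the comparison dogs, so the count of 6 cannot be set against that rate. COL10A1 was at 0.190 CPM (2 counts) in boxer 4 and at 0 in the other dogs, so 2 of the 6 were fixed by counts of 0, with a level under the floor of 3 counts, and show no difference. COL27A1 was at 274 CPM in boxer 1, with the next comparison dog at 129 CPM. COL2A1 was at 14.7 CPM in Boston terrier 7, with the next at 6.47 CPM. COL6A5 was at 1.98 CPM in Boston terrier 7, with the next at 0.182 CPM. COL9A2 was at 302 CPM in boxer 3, with the next lowest at 418 CPM. French bulldogs, at 11 libraries, were too many for this test.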

How the results depend on the processing

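No collagen had an adjusted p under 0.05 in any comparison under any alternative run. The counts of genes and of collagens with a small p moved, and the cause was not tested. Genes are counted below by the adjusted p and collagens by the unadjusted p. Where no share of all genes by the unadjusted p is given in the text for a setting, as for limma-voom and the replicate block, the count of collagens is not set against a background. In French bulldogs against the comparison group, genes with an adjusted p under 0.05 numbered 58 by DESeq2, 2 by limma-voom, 0 with at least 10 counts in every library, with French bulldogs 2 and 8 summed or against either library series alone, and 0 to 7 with a library left out, against 1. Collagens with an unadjusted p under 0.05 numbered 5 by limma-voom, 2 with French bulldogs 2 and 8 summed, 1 with at least 10 counts in every library or against either series alone, and 1 (without boxer 4) to 5 (without French bulldog 9) with a library left out, against 3. Against boxers, genes numbered 23 by DESeq2 and 0 to 2 with a library left out, and collagens 1 by DESeq2, 4 by limma-voom, 0 with at least 10 counts and 1 to 5 with a library left out, highest without French bulldog 9. Against Boston terriers, genes numbered 8 by DESeq2, 0 by limma-voom and 0 to 2 with a library left out, and collagens 2 by DESeq2, 3 by limma-voom, 1 without the filter, 1 with French bulldogs 2 and 8 summed and 0 to 2 with a library left out. Boxers against Boston terriers gave 3 collagens with library series as a covariate and 0 to 1 with a library left out. Same-numbered libraries of the arms did not pair (correlations of deviations -0.50 to 0.21). A replicate block over numbers 1 to 7 gave 0 genes with an adjusted p under 0.05 and 6 collagens with an unadjusted p under 0.05. The same 14 libraries without it gave 5 and 4. Directions of unsupported fold changes turned in several genes. By limma-voom the log2 fold change was -0.35 for COL1A2, -0.19 for COL3A1, -0.21 for COL4A5, -0.74 for COL5A3 and -0.36 for COL6A3. With the replicate block, in those 14 libraries, it was -0.16 for COL15A1, -0.29 for COL1A2, -0.26 for COL2A1, -0.0059 for COL3A1, -0.52 for COL4A5, -1.19 for COL5A3 and -0.20 for COL6A3. COL11A2 was at 0.011 by DESeq2, 0.012 by its size factors, 0.030 without the filter, 0.10 with French bulldogs 2 and 8 summed and 0.50 against the second comparison series. That series gave -0.034 for COL15A1, 0.26 for COL27A1 and -0.31 for COL2A1, and the first gave -0.15 for COL4A5. With a library left out COL11A2 ran from -0.42 to 0.36, COL15A1 from -0.041 to 0.62, COL2A1 from -0.47 to 1.24, COL4A5 from -0.26 to 0.37, COL5A3 from -0.47 to 0.43, COL6A1 from -0.47 to 0.069 and COL6A3 from -0.12 to 0.56. COL9A1 with COL9A2 had r = -0.024 without French bulldog 6. Depth limited COL10A1, which was at or under 3 counts throughout.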
